A study of Homo sapiens with 18 samples.

Results

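The comparison described here is the early response of T47D cells to doxycycline, 3 days after the drug was added, against the same line without the drug. T47D is an established human breast cancer cell line that carries the estrogen receptor, and per the labels it overexpresses G0S2 when doxycycline is given at 0.5 ug/ml. The groups were taken from the sample labels: 3 libraries at day 0 (control, no overexpression) and 3 libraries at day 3, which are 6 of the 18 libraries of the series. A further 3 T47D libraries at day 15 entered the fit and served as the later time, and 3 control and 3 day 3 libraries of MDA-MB-231, an estrogen receptor negative line, are set beside single results. All libraries came from total RNA. The labels give neither the promoter and vector behind the introduced gene nor whether the line is 1 clone. The design text of the series calls the samples biological triplicates, but it speaks of parental and Aza-resistant lines, which no sample label names, so the labels were followed here. They do not state that the 3 libraries of a group were separate cultures, and a p-value here reflects library-to-library spread alone. No group given doxycycline without the introduced gene was included, so what G0S2, the drug and the vector each contribute cannot be told apart.

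The T47D table lists 14768 genes. The 6 libraries hold 40.1 to 51.0 M reads on listed genes, and levels are given in CPM, the reads of a gene scaled to the library total. Luminal markers were present in all 6 libraries: ESR1, the estrogen receptor, lay between 270 and 280 CPM, the keratin gene KRT8 between 2230 and 2425 CPM, and CDH1, which encodes E-cadherin, between 931 and 951 CPM. Of 18 markers of MDA-MB-231, 9 were listed, and their summed level was 232 to 238 CPM in control and 231 to 237 CPM at day 3. LGALS1 was the highest of these at 136 to 146 CPM, CD44 lay between 8.62 and 11.8 CPM, and VIM, AXL, CAV1 and MSN were not listed. Not listed either were the leukocyte genes PTPRC, CD3E and LYZ, the fibroblast genes COL1A2, DCN and PDGFRB, or the endothelial genes PECAM1, CDH5 and VWF. CD14, a monocyte marker, lay between 0.426 and 0.746 CPM. Of 15 leukocyte markers 4 were listed, and their summed level was 1.63 to 2.10 CPM in control and 1.81 to 2.37 CPM at day 3. COL1A1 and 1 other fibroblast gene, of 11, summed to 34.5 to 40.1 CPM in control and 33.1 to 35.9 CPM at day 3.

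G0S2 encodes a small protein that binds PNPLA2, the lipase that starts triglyceride breakdown, and inhibits it. In GENCODE release 29 (GRCh38), G0S2 is ENSG00000123689.5, on the plus strand of chromosome 1 (start 209675420, end 209676388). Its level was 0.90, 0.277 and 0.376 CPM in the 3 control libraries (14 to 40 reads) and 883, 855 and 844 CPM in the 3 day 3 libraries. The groups were far apart, and the day 3 libraries lay close together. The log2 fold was 10.67 (SE 0.371, limma adjusted p = 9.54e-06). In MDA-MB-231 the log2 fold of G0S2 at day 3 was 5.87. Its level there was at most 25.5 CPM in control and 1429 to 1506 CPM at day 3. Both levels were above those of T47D, so the smaller fold does not mean less G0S2 RNA at day 3. The tables of the lines were normalized separately, and the difference between the lines was not tested.

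Cells answer viral RNA, or interferon from other cells, with a set of interferon-stimulated genes. Interferon receptors signal through the JAK kinases to STAT proteins, among them STAT2, which acts with IRF9 in a complex that binds a short promoter element, the interferon-stimulated response element. Its targets encode proteins that sense or degrade viral RNA, block its translation, attach the ubiquitin-like protein ISG15 to other proteins, or present antigen on MHC class I.

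At day 3, 277 of 14768 genes were called at a limma adjusted p under 0.05, 1.88% of those tested: 171 rose (1.16%) and 106 fell (0.718%). RNA came from whole cultures, so a change in every cell and a change in some of the cells, or fewer cells of a type and less RNA per cell, cannot be told apart. Of the genes that rose, 79 did so by more than 2-fold and 22 by more than 8-fold, with a median log2 fold of 0.92. The falls had a median log2 fold of -0.24, and the lowest was -0.93, in PROM1, named after its value was seen. Without adjustment 1493 genes had a p under 0.05. The 3 day 3 libraries lay wholly above or wholly below the 3 control libraries in 21.9% of all genes, so separation of the groups is not by itself a call. All 171 rises and all 106 falls separated the groups, so separation of a called gene is not further support for its call. The spread behind these calls comes from all 9 T47D libraries, and day 15 replicate 2 stood apart from its group. Fitted on the 6 control and day 3 libraries alone, 389 genes rose and 532 fell, and the fit without day 15 replicate 2 called 333 rises and 413 falls. All 171 rises and 106 falls were among the calls of both. Leaving out 1 control or day 3 library at a time gave 137 to 151 rises and 43 to 63 falls, and 182 calls in all without day 3 replicate 1. Leaving out any of the 6 libraries therefore moved the number of falls by more than 1.5 times.

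**Figure D1:**
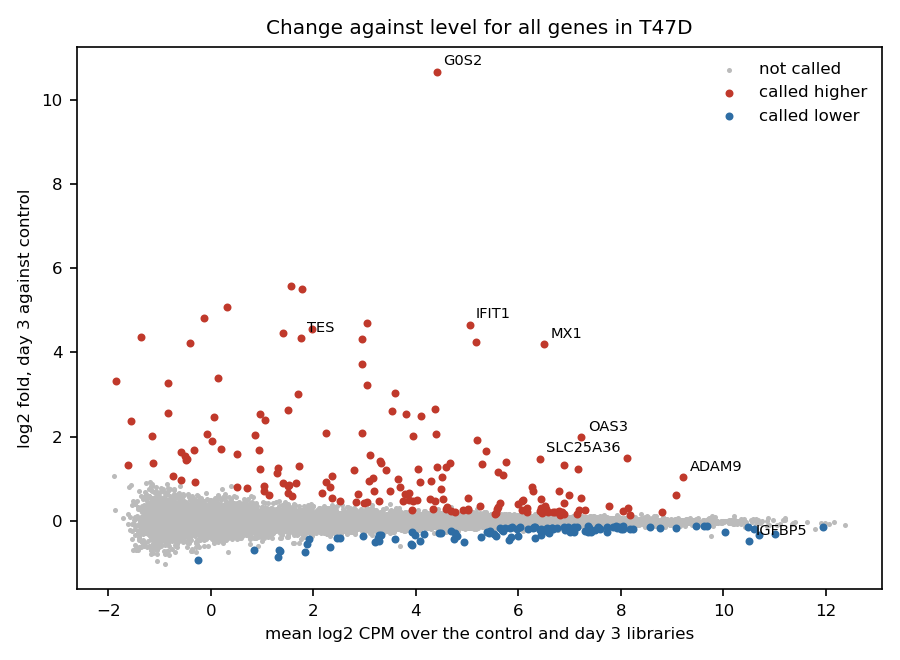
Change of each gene at day 3 (vertical axis, log2 fold against control) by its level (horizontal axis, mean log2 CPM over the 6 libraries). Each point is 1 of the 14768 genes, red where called higher (171) and blue where called lower (106). Rises above a log2 fold of 1 span the range of levels, and the falls stay above -1.

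Genes of the interferon response made up much of what rose. Over 8 lists of such genes, 80 of 119 measured members rose, 1 fell and 38 were not called, where 1.16% of all genes rose and 0.718% fell. Their median log2 fold was 0.91, against -0.0026 over all genes. The 80 members are 46.8% of the 171 rises and include 56 of the 79 above 2-fold. These lists were drawn up with earlier results of these data known. None of the 8 interferon ligand genes looked for, IFNB1 and IFNL1 among them, was listed in the T47D table. In MDA-MB-231, 117 of the 119 were listed, 2 rose and 0 fell by limma, where 0.895% of that table rose and 0.874% fell, with a median log2 fold of 0.01. The tables were normalized separately and the difference between the lines was not tested.

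Because the response element is the sequence that links STAT2 and IRF9 to these genes, its core (GAAA, any 2 bases, GAAA) was searched on both strands in RefSeq promoters of build GRCh38.p14, from 250 bases before to 50 bases after each start site. The table holds promoters for 10954 of the genes tested, and 3.84% of them carry the core in at least 1 window (2.84% of 15819 windows). Among genes that rose, 55 of the 129 matched carry it, or 42.6%. The share was 55.9% of the 59 matched rises above 2-fold and 5.0% of the 80 matched falls. Interferon-list members that rose carry it in 37 of 60 matched genes, and members that were not called in 4 of 28. The 6 stretches below are shown because they hold the core in strongly raised genes and lie almost wholly upstream of a RefSeq start site. They are printed 5′ to 3′ along the gene, and capitals mark the core on either strand.
IFI27, chr14:94110588-94110690, plus strand: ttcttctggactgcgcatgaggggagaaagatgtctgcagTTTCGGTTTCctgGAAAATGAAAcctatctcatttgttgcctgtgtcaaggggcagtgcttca
IFIT1, chr10:89392467-89392569, plus strand: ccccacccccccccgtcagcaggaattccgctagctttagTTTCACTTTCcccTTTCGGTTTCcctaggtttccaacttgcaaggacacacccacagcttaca
ISG15, chr1:1013344-1013439, plus strand: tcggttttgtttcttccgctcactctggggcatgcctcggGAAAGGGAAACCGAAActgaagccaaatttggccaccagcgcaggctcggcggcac
IFI6, chr1:27672236-27672388, minus strand: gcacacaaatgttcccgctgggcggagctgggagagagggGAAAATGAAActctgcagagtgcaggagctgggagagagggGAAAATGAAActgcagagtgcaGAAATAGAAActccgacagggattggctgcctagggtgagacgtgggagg
RSAD2, chr2:6877592-6877681, plus strand: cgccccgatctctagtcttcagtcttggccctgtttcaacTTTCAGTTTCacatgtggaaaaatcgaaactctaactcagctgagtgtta
SAMD9, chr7:93118066-93118155, minus strand: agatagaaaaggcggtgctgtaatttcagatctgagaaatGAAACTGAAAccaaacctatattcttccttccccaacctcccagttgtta

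IFI27 and IFIT1 each hold 2 cores 3 bases apart, ISG15 holds 2 that overlap, and IFI6 holds 3, in part within a repeated stretch. The IFI6 and SAMD9 stretches touch no exon of their own gene in GENCODE release 29, while IFIT1 overlaps an exon by 24 bases and ISG15 and RSAD2 by 17. The IFI27 stretch lies within the wider GENCODE model of IFI27, between exons. Over all rises, 81 cores were found in the 55 genes, 20 of which hold 2 or more. The first base of the core lay between 200 bases and 1 base before the nearest start site for 88.9% of them, with a median of -53. In other genes tested, 400 cores were found in 366 genes, 69.5% in that span, with a median of -119. A second, palindromic core (TTC, any 3 bases, GAA), known as the gamma activated site, was in 8.50% of all genes matched, 20.9% of the rises and 13.8% of the falls. A match is a stretch of letters and does not show that a factor binds there.

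**Figure D2:**
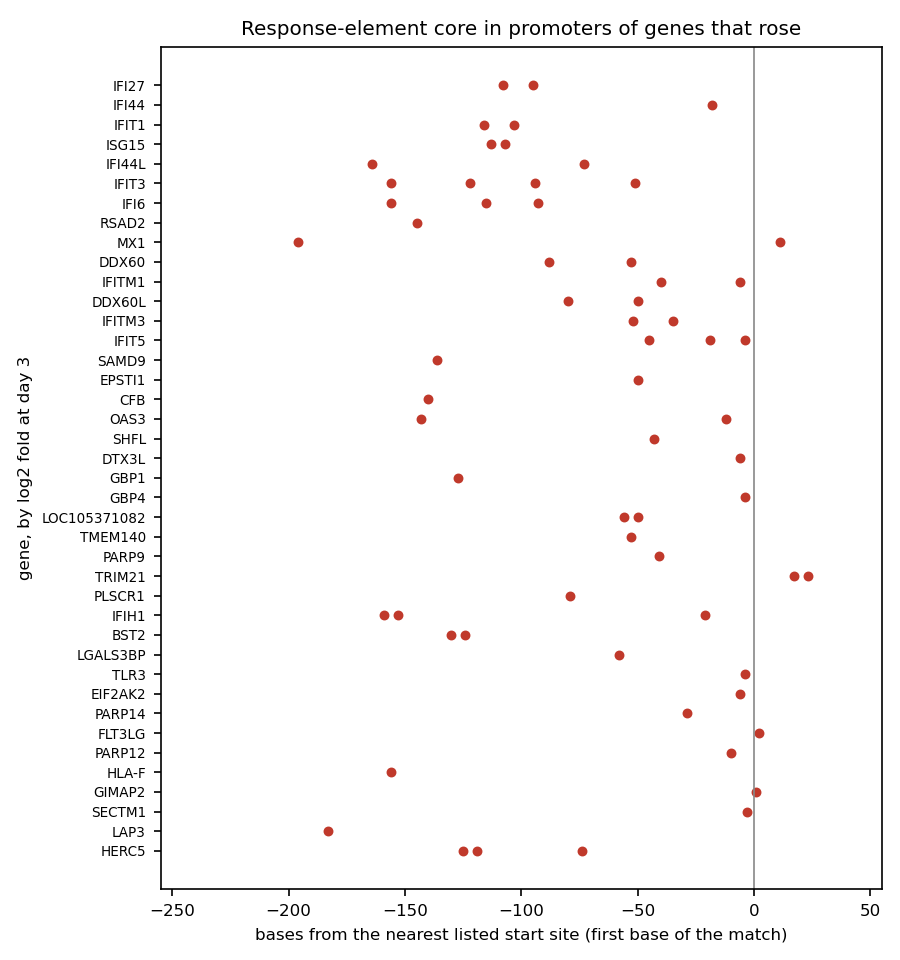
Position of the response-element core in promoters of 40 genes that rose, ordered from the largest log2 fold at the top. The horizontal axis gives bases from the nearest RefSeq start site to the first base of the match, and each point is 1 match. Most points lie within 200 bases before the start.

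Enzymes of the 2-5A system, which make a small signal on double-stranded RNA that turns on RNase L, rose most as a family. Of 5 measured members 4 rose, and the fifth was not called, with a median log2 fold of 4.56. OAS1 was at 0.472, 0.593 and 0.301 CPM in control and 22.1, 21.6 and 25.1 CPM at day 3, and its log2 fold was 5.50 (SE 0.167, adjusted p = 1.01e-10). OAS2 went from 1.57, 1.38 and 1.73 CPM to 43.2, 42.2 and 41.2 CPM, with a log2 fold of 4.70 (SE 0.0820). The groups did not overlap in either gene. OASL, which lacks the synthetase activity, was at 0.517, 0.811 and 0.952 CPM in control and 19.2, 19.3 and 18.1 CPM at day 3 (log2 fold 4.56). OAS3 was at 73.6, 75.0 and 77.0 CPM in control and 295, 299 and 304 CPM at day 3, a log2 fold of 1.99 (SE 0.0311). It had 3074 to 3792 reads per control library, so its fold does not rest on few reads.

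IFIT proteins bind foreign RNA ends, and IFITM proteins hinder virus entry at membranes. Of 8 measured members 7 rose and the median log2 fold was 2.83. IFIT1 was at 6.73, 6.07 and 6.76 CPM in control and 171, 164 and 165 CPM at day 3 (log2 fold 4.66, SE 0.0611, adjusted p = 9.36e-16). IFIT3 rose from 1.75, 1.52 and 1.68 CPM to 31.9, 35.7 and 35.1 CPM (log2 fold 4.32) and IFIT2 from 2.11, 2.22 and 1.85 CPM to 28.1, 27.1 and 29.3 CPM (log2 fold 3.73). In these 3 genes each day 3 library exceeded each control library by a wide margin. IFITM1 had 3.62, 4.57 and 4.31 CPM in control and 35.1, 34.4 and 33.9 CPM at day 3, a log2 fold of 3.03 (SE 0.0885). IFITM3 and IFIT5 followed with log2 folds of 2.63 and 2.54. Members of the OAS, IFIT and IFITM families resemble each other in sequence, and how the authors' counting split shared reads is not given in the sources used here.

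ISG15 is a ubiquitin-like protein that UBA7, UBE2L6 and HERC5 attach to target proteins and USP18 removes. Of the 8 measured genes of this system 7 rose, with a median log2 fold of 1.06. ISG15 itself was at 0.607, 0.336 and 0.601 CPM in control and 12.7, 12.2 and 12.5 CPM at day 3 (log2 fold 4.47, SE 0.225). UBE2L6 rose from 35.6, 33.7 and 37.5 CPM to 77.1, 73.5 and 76.7 CPM, a log2 fold of 1.09 (SE 0.0447). Every step of the cycle was thus represented among the rises: UBA7 had a log2 fold of 1.48, HERC6 of 1.03, HERC5 of 0.80 and USP18 of 1.22.

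Sensors of RNA and their signalling genes rose in 8 of 14 measured members, with a median log2 fold of 0.61. DDX58, which encodes the RNA sensor RIG-I, was at 19.6, 18 and 18.6 CPM in control and 73.5, 69.7 and 70.6 CPM at day 3 (log2 fold 1.92, SE 0.0548). IFIH1, which encodes the long-RNA sensor MDA5, rose from 25.2, 24.9 and 23.0 CPM to 59.6, 65.5 and 62.9 CPM (log2 fold 1.36). EIF2AK2, the RNA-activated kinase PKR that halts translation, rose from 97.0, 95.0 and 88.3 CPM to 218, 220 and 215 CPM (log2 fold 1.22, SE 0.0581). The groups did not overlap in any of these. DHX58 had a log2 fold of 2.08, IFI16, a DNA sensor, of 1.91 and TLR3, the endosomal sensor of double-stranded RNA, of 1.24.

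The receptor and JAK-STAT list, which holds the machinery upstream of these genes, behaved unevenly. Of 22 measured members 7 rose, 1 fell and 14 were not called, and the median log2 fold was 0.07. STAT2 rose from 61.3, 60.1 and 62.1 CPM to 99.6, 101 and 99.3 CPM (log2 fold 0.71, SE 0.0346, adjusted p = 3.47e-09), and IRF9 from 4.61, 4.19 and 5.19 CPM to 29.3, 28.0 and 28.6 CPM (log2 fold 2.61, SE 0.0746). The regulator genes IRF7, IRF1 and BATF2 rose with log2 folds of 2.09, 0.91 and 2.57. The member that fell was JAK1, a kinase bound to the interferon receptors, at 871, 864 and 853 CPM in control and 791, 792 and 788 CPM at day 3, a log2 fold of -0.13 (adjusted p = 0.0311). JAK1 lies outside the rule for named genes and was chosen after its values were seen.

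Effector genes, the longest of these lists, rose in 36 of 46 measured members, with a median log2 fold of 1.28. MX1, a GTPase that traps viral nucleoproteins, was at 21.2, 21.8 and 20.4 CPM in control and 388, 378 and 401 CPM at day 3 (log2 fold 4.20, SE 0.0419, adjusted p = 4.36e-17). IFI6 rose from 8.21, 8.15 and 8.12 CPM to 159, 155 and 157 CPM (log2 fold 4.25), and IFI27 from 0.36, 0.237 and 0.551 CPM to 21.1, 20.2 and 20.2 CPM (log2 fold 5.58, SE 0.198). The groups did not overlap in any of the 3 genes. DDX60, a helicase, rose from 2.50, 2.75 and 2.66 CPM to 25, 25.4 and 24.8 CPM (log2 fold 3.22). Some effectors had few control reads. IFI44 had 3 to 12 reads per control library, and its log2 fold of 5.09 became 2.75 once a further 1 CPM was added to the deposited values, with their own pseudocount left in. XAF1 had 2 to 7 control reads and a log2 fold of 4.81, or 2.30 on that scale, and RSAD2, the antiviral enzyme viperin, 3 to 7 control reads and a log2 fold of 4.22, or 1.85. IFI44L had 0 to 2 reads per control library and 1.63, 1.46 and 2.06 CPM at day 3, and TRIM22 likewise 0 to 2 control reads and 1.00, 0.929 and 0.565 CPM at day 3, so no fold is given for either. Log2 folds of genes of other lists with few reads were also smaller on that scale: UBA7 0.62, IFI16 0.96, TLR3 0.82, BATF2 0.95, CCL5 1.77 and CASP1 0.44. Reads per control library were also few in IFI27 (12 to 22), OAS1 (12 to 30), ISG15 (17 to 27), OASL (23 to 41) and TES (27 to 33). The log2 folds of these genes would be smaller on that scale too, and those values are not reported here.

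Among PARP and DTX3L genes 5 of 7 rose, with a median log2 fold of 0.99. PARP9 and its partner DTX3L, a ubiquitin ligase, rose from 32.6, 33.3 and 33.4 CPM to 86.7, 87.1 and 88.1 CPM (log2 fold 1.40) and from 23.7, 23.4 and 22.4 CPM to 72.9, 75.2 and 71.1 CPM (log2 fold 1.65). Their promoter windows overlap, in opposite directions, and share 1 core. PARP14, PARP10 and PARP12 had log2 folds of 1.16, 0.99 and 0.94. Of 9 TRIM and PML body genes 6 rose, with a median of 0.52, among them TRIM21, an antibody receptor in the cytosol, at 1.38, and PML, the scaffold of PML nuclear bodies, at 0.75. TRIM14 and TRIM5 followed at 0.64 and 0.52. TRIM38, at 0.48 (adjusted p = 0.0108), lost its call without control replicate 1, control replicate 2 or day 3 replicate 1, and TRIM5 and TRIM22 are neighbouring paralogs.

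**Figure D3:**
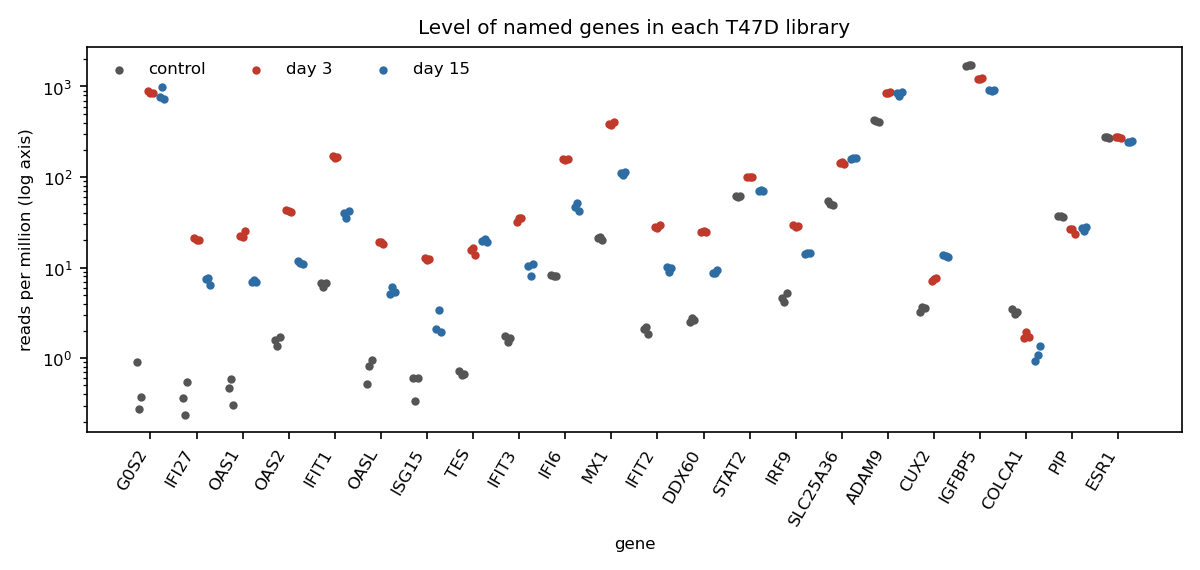
Level of 22 named genes in each T47D library (vertical log axis, CPM; 3 points per group, control in grey, day 3 in red, day 15 in blue). Interferon genes such as MX1 (control 20.4 to 21.8, day 3 378 to 401) are highest at day 3. TES, SLC25A36, ADAM9 and CUX2, chosen with earlier results known, were not called lower at day 15 than at day 3. ESR1 lies between 270 and 280 in control and day 3.

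Antigen presentation rose by less. MHC class I genes rose in 10 of 16 measured members, where 1.16% of all genes rose, with a median log2 fold of 0.34. HLA-B was at 121, 122 and 130 CPM in control and 185, 176 and 182 CPM at day 3 (log2 fold 0.54, SE 0.0773, adjusted p = 0.00282), and HLA-C rose from 70.9, 71.4 and 76.8 CPM to 105, 102 and 106 CPM (log2 fold 0.51). TAP1, which carries peptides into the endoplasmic reticulum, rose from 57, 55.8 and 58.5 CPM to 82.0, 81.3 and 79.4 CPM (log2 fold 0.50). Each of these 3 genes separated the groups, by about the same log2 step. NLRC5, an activator of MHC class I genes, had a log2 fold of 1.24, and HLA-F of 0.93 (reads of HLA genes can be split between paralogs). Of 8 immunoproteasome genes 5 rose, with a median of 0.32. PSMB8 rose from 11.8, 11.1 and 11.5 CPM to 18.7, 18.1 and 18 CPM (log2 fold 0.67) and LAP3, a peptidase, from 59.5, 58.5 and 57.1 CPM to 103, 101 and 103 CPM (log2 fold 0.81), while PSMB9, PSME2 and PSME1 had log2 folds of 1.14, 0.34 and 0.29. Of 5 MHC class II genes measured, CD74 (log2 fold 0.41, adjusted p = 0.0109) was the 1 called, and its call was lost without control replicate 1, day 3 replicate 1 or day 3 replicate 3.

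The chemokine and the NF-kB list each had a median log2 fold of 0.02. Of the chemokines and cytokines 1 rose and 1 fell (11.1% each), where 1.16% of all genes rose and 0.718% fell. Of 9 chemokines and cytokines measured, CCL5, an attractant of T cells, rose from 0.27, 0.277 and 0.276 CPM to 3.54, 3.29 and 3.66 CPM (log2 fold 3.39, SE 0.161). CCL28, a mucosal chemokine, fell from 31.3, 32.0 and 30.1 CPM to 23.1, 24.0 and 22.5 CPM (log2 fold -0.42). Among 18 NF-kB genes, TNFAIP3, a feedback inhibitor, was the 1 called (5.56%), with a log2 fold of 0.72 (adjusted p = 0.00885). It was not called once replicate 2 of either group was omitted. Without adjustment 5 of the 18 had a limma p under 0.05, and the 6-library fit called 4 rises and 0 falls. Of 26 apoptosis regulators 3 rose (11.5%), where 1.16% of all genes rose: CASP1, TNFSF10 and CASP4, with log2 folds of 1.38, 0.48 and 0.45. TNFSF10, the death ligand TRAIL, was at 11.7, 12.6 and 12.8 CPM in control and 17.9, 15.9 and 18.1 CPM at day 3. This count was 5 in the 6-library fit and without day 15 replicate 2, 0 (limma) without day 3 replicate 3 and 1 without any other single control or day 3 library.

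**Figure D4:**
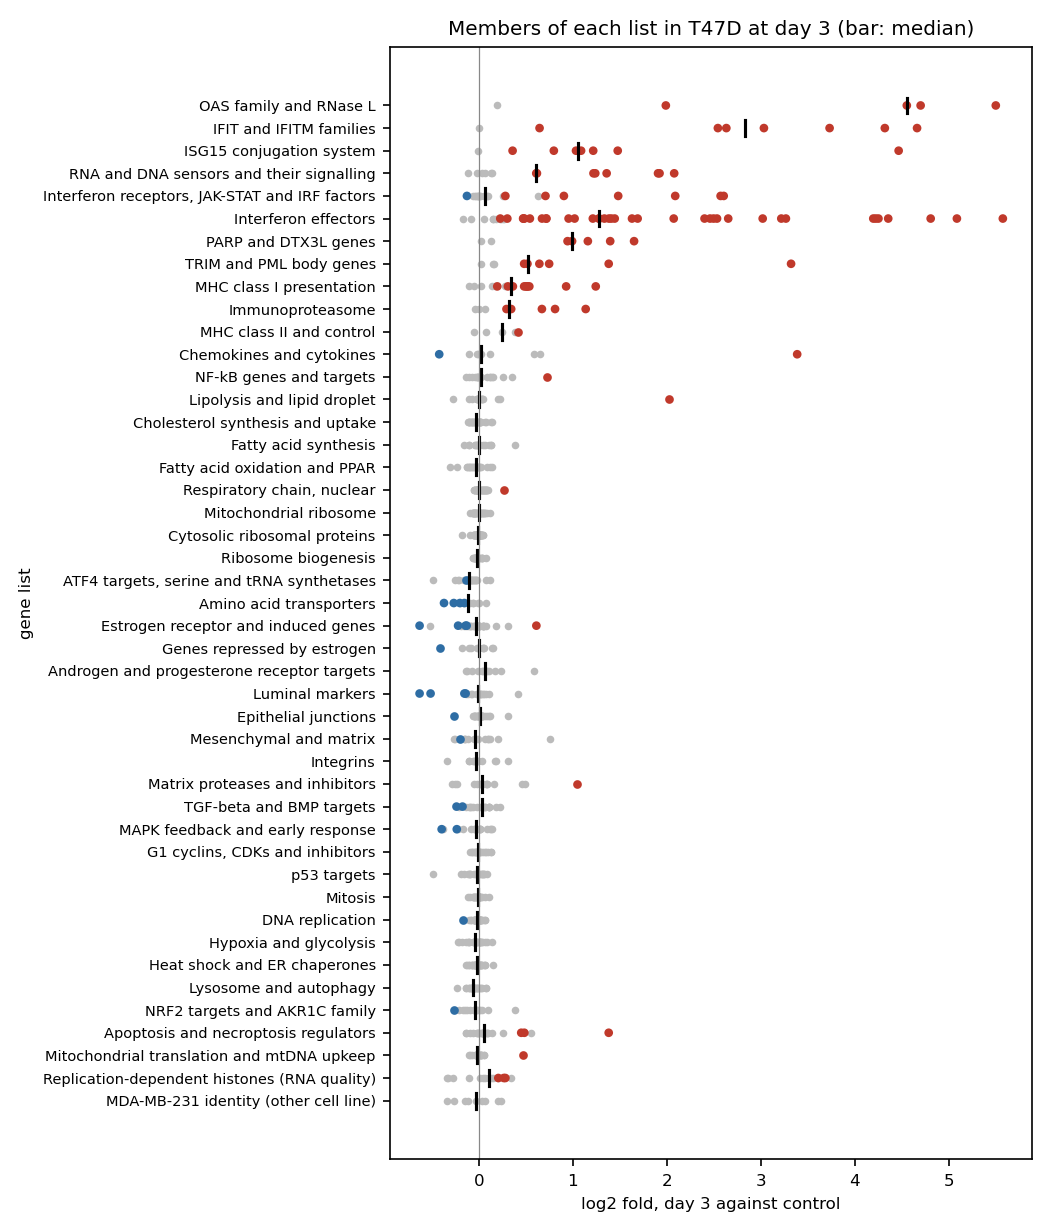
Log2 fold at day 3 of the members of each list with 5 or more measured genes. Each point is 1 gene, red where called higher, blue where called lower and grey where not called, and the black bar is the list's median. The interferon lists at the top spread to the right, with a median of 4.56 for the OAS list, while medians of the metabolic and cell cycle lists lie near 0.

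Genes of the interferon response often lie in clusters, and the rises did so too. Placed genes of the table were ordered by start along each chromosome. Of 164 genes that rose and could be placed in GENCODE release 29, 47 (28.7%) had another rise directly before or after them, at any distance. The share was 2.01% of 13213 other genes. For falls the numbers were 4 of 104 (3.85%) and 1.52%. The longest of the 20 runs was IFIT2, IFIT3, IFIT1 and IFIT5 on chromosome 10, from 89283694 to 89421001, with log2 folds of 2.54 to 4.66. OAS1, OAS3 and OAS2 follow each other on chromosome 12, from 112906777 to 113011723. BST2, which encodes the virus-tethering protein tetherin, lies between CCDC194 and the noncoding gene BISPR on chromosome 19, from 17390509 to 17419324, with log2 folds of 1.02 to 2.37 in this run. Whether counting used strand is not given in the sources used here, so reads of overlapping genes in such runs may be shared.

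By day 15 the interferon response was lower but present. Against day 3, 75 of the 80 interferon-list rises were lower at day 15 and 0 were higher by limma in the same fit, where 3.35% of all genes were lower and 2.23% higher. The 80 were selected as high in the same day 3 libraries, which favours a lower value later. Of all 119 measured members, called at day 3 or not, 77 were lower and 1 was higher. Against control, which both times share, the median log2 fold of the 119 members was 0.91 at day 3 and 0.38 at day 15. MX1 lay at 111, 105 and 115 CPM at day 15, 1.82 log2 units under day 3 (SE 0.0419, adjusted p = 4.62e-12). Its day 15 libraries sit between control and day 3 with no overlap. Without day 15 replicate 2, which stood apart, 76 of the 80 were lower and 0 higher, where 9.89% of all genes were lower and 7.74% higher. Of the 10 MHC class I rises 1 was lower at day 15 with all libraries and 6 without that replicate. HLA-B, for one, differed from day 3 by -0.05 (adjusted p = 0.812) with it and by -0.16 (adjusted p = 0.00163) without it. IFI44 (-0.27, adjusted p = 0.638) and HERC5 (-0.07, adjusted p = 0.674) were not called with it, nor without it (adjusted p = 0.554 and 0.729). The number of genes called between day 15 and day 3 ranged widely with the fit: 824 with all libraries and 2604 without day 15 replicate 2.

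Of the 91 rises outside the interferon lists, 20 were lower at day 15 than at day 3, 12 were higher and 59 were not called. The next 4 genes belong to the fixed panel, which took them in with earlier results of these data known. That none of them was called lower is therefore not a separate observation. TES, which encodes the focal-adhesion protein testin, was at 0.72, 0.653 and 0.676 CPM in control, 15.5, 16.3 and 13.7 CPM at day 3 and 19.7, 20.5 and 19 CPM at day 15. Its log2 fold at day 3 was 4.34 (SE 0.0879, adjusted p = 1.09e-13), and day 15 lay 0.38 above day 3 (adjusted p = 0.019). SLC25A36, a mitochondrial carrier of pyrimidine nucleotides, rose from 54.2, 49.8 and 49.2 CPM to 143, 145 and 139 CPM (log2 fold 1.48, SE 0.0405) and stood 0.19 higher at day 15 (adjusted p = 0.0135). Neither of these groups overlapped between control and day 3. CUX2, a homeobox gene, rose from 3.22, 3.68 and 3.63 CPM to 7.15, 7.50 and 7.59 CPM (log2 fold 1.07) and stood 0.85 higher at day 15 (adjusted p = 8.69e-06). ADAM9, a membrane protease, rose from 423, 413 and 409 CPM to 852, 852 and 860 CPM (log2 fold 1.04, SE 0.0350), and its difference of -0.03 between the times was not called (adjusted p = 0.713). The matched promoter windows of TES, SLC25A36 and CUX2 hold no response-element core, and neither do those of the interferon-list rises OAS1, IRF9 and STAT2. Among all matched rises 55 of 129 carry it, so its absence does not set these genes apart. In MDA-MB-231 at day 3, SLC25A36 and ADAM9 were called higher by limma, with log2 folds of 0.25 (adjusted p = 4.65e-05) and 0.09 (adjusted p = 0.0218). TES was not called there (-0.03) and CUX2 was not listed, and the difference between the lines was not tested. Without day 15 replicate 2 the differences between the times were 0.36 in TES, 0.18 in SLC25A36 and 0.85 in CUX2, all called, and 0.01 in ADAM9, not called. Of all 171 rises, 95 were lower at day 15 than at day 3, 12 were higher and 64 were not called.

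**Figure D5:**
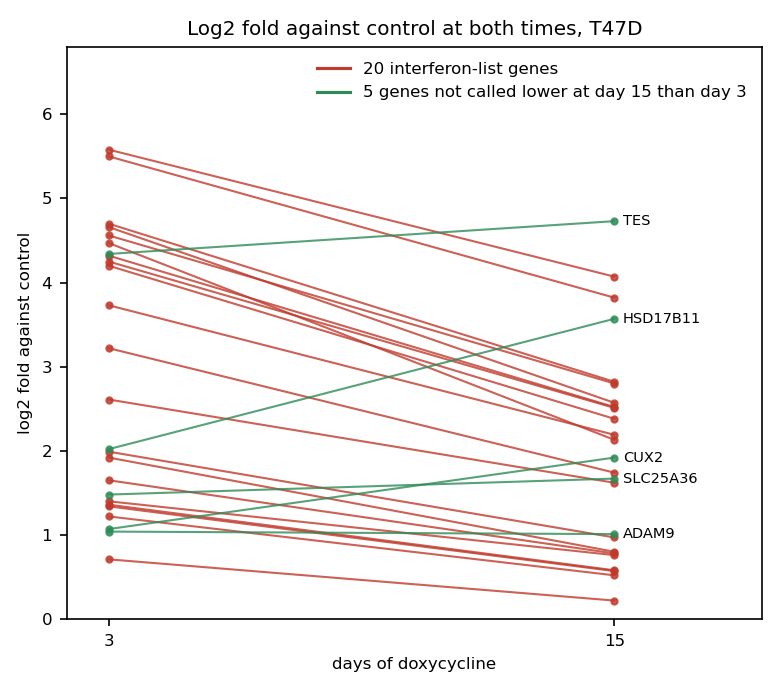
Log2 fold against control at day 3 and day 15 for 20 interferon-list genes (red) and for 5 genes not called lower at day 15 than at day 3 (green), which were picked for that. Both times share the control libraries. Every red line falls, but the red genes are a selection too, without IFI44 and HERC5, which were not called lower at day 15. TES goes from 4.34 to 4.73.

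Lipid genes are of interest because G0S2 acts on triglyceride breakdown. PNPLA2, the lipase it inhibits, was at 33.8, 33.2 and 36.8 CPM in control and 33.6, 33.6 and 35.7 CPM at day 3 (log2 fold -0.01, adjusted p = 0.990), and PLIN2, a coat protein of lipid droplets, at 32.0, 32.9 and 34.7 CPM and 34.3, 34.7 and 33.7 CPM (log2 fold 0.05, adjusted p = 0.839). The groups overlapped in both genes. Of 15 lipolysis and droplet genes, HSD17B11, a droplet-associated dehydrogenase, was the 1 called: it had 0.157, 0.198 and 0.125 CPM in control, 0.914, 0.752 and 0.881 CPM at day 3 and 2.38, 2.81 and 2.61 CPM at day 15. Its log2 fold at day 3 was 2.02 (SE 0.195), or 0.64 with a further 1 CPM added to the deposited values. By limma 0 of 29 cholesterol genes were called (3 without adjustment, 0 with voom), 0 of 17 fatty acid synthesis genes (2 and 0) and 0 of 25 fatty acid oxidation genes (5 and 0). The 6-library fit called 1 rise and 4 falls, 1 fall, and 3 falls in these lists. In MDA-MB-231, 11 of the same 29 cholesterol genes and 7 of 16 fatty acid synthesis genes rose, where 0.895% of that table rose. The difference from T47D was not tested.

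Estrogen-response genes changed in small steps, and ESR1 itself was not called. ESR1 was at 279, 280 and 273 CPM in control and 277, 277 and 270 CPM at day 3, a log2 fold of -0.01 (SE 0.0293, adjusted p = 0.958). Of 33 receptor and estrogen-induced genes measured 4 fell (12.1%), 1 rose and 28 were not called, with a median log2 fold of -0.03. Among all genes 0.718% fell and 1.16% rose. PGR, the progesterone receptor and a classic target, fell from 838, 819 and 804 CPM to 746, 764 and 739 CPM, a log2 fold of -0.13 (SE 0.0293, adjusted p = 0.035). TFF3, a secreted trefoil peptide, fell from 6.14, 5.80 and 6.51 CPM to 3.99, 3.94 and 3.91 CPM (log2 fold -0.63, adjusted p = 0.0283). PDZK1, a scaffold protein, and AGR2, a folding enzyme of secreted proteins, fell by 0.22 and 0.14, and RET, a receptor kinase, had a log2 fold of 0.61, with no call without control replicate 1, control replicate 3 or day 3 replicate 2. GREB1, another classic target, was at 487, 496 and 504 CPM in control and 507, 511 and 515 CPM at day 3 and was not called (log2 fold 0.04, adjusted p = 0.705). TFF1 was not called either, although its groups did not overlap (3.82, 4.08 and 3.71 CPM against 2.56, 2.41 and 3.07 CPM, log2 fold -0.52, adjusted p = 0.073). The 4 falls became 9 in the 6-library fit, 8 without day 15 replicate 2, 1 without trend or with the replicate number as a block, and 1 or 2 whichever control or day 3 library was left out.

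Luminal markers showed 4 falls among 19 measured genes (21.1%), PIP, TFF3, AGR2 and PRLR, and 15 not called, where 0.718% of all genes fell. PIP, a secreted protein of apocrine cells, fell from 36.8, 36.8 and 36.1 CPM to 27.0, 26.5 and 23.3 CPM (log2 fold -0.51, SE 0.0599, adjusted p = 9.63e-05). PRLR, the prolactin receptor, was at 4278, 4153 and 4058 CPM against 3730, 3776 and 3714 CPM (log2 fold -0.15, adjusted p = 0.0379). Leaving out control replicate 3 or day 3 replicate 2 brought this count to 2, and leaving out any of the other 4 libraries brought it to 1. GATA3, a luminal transcription factor, was at 1129, 1143 and 1139 CPM and 1207, 1212 and 1267 CPM (log2 fold 0.11, adjusted p = 0.0788), and FOXA1 had a log2 fold of -0.01 (adjusted p = 0.941). The summed level of the luminal list was 16419 to 16542 CPM in control and 16106 to 16150 CPM at day 3. Genes repressed by estrogen held 1 fall in 12, BCAS1 (log2 fold -0.42, adjusted p = 0.0299).

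Amino acid transporters held 4 falls among 13 measured genes, a share of 30.8% where 0.718% of all genes fell, and their median log2 fold was -0.12. SLC6A14, a broad importer of neutral and basic amino acids, fell from 32.5, 31.2 and 30.6 CPM to 22.9, 25.6 and 24.5 CPM (log2 fold -0.37, SE 0.0604) and was a further 2.40 log2 units lower at day 15 (-2.40, adjusted p = 7.6e-12). SLC7A11, the cystine importer, went from 47.9, 45.8 and 44.1 CPM to 37.2, 40 and 37.2 CPM (log2 fold -0.27). SLC7A1 and SLC1A4 fell by 0.20 and 0.15. The number of falls was 8 in the 6-library fit, 1 without day 3 replicate 1 and 2 without any other single control or day 3 library, and 6 without day 15 replicate 2. Of 27 targets of the stress factor ATF4, YARS1, a tRNA synthetase, was the 1 called (log2 fold -0.13, adjusted p = 0.0376), while 16 had day 3 libraries wholly below control, against 11.9% of all genes. Without adjustment 14 of the 27 had a p under 0.05, and the 6-library fit called 10 falls and 0 rises by limma.

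The largest falls by the rule were all under 2-fold. COLCA1, which GENCODE release 29 types as an antisense gene, so that without strand its reads cannot be told from those of a gene it overlaps, fell from 3.49, 3.09 and 3.21 CPM to 1.67, 1.95 and 1.72 CPM (log2 fold -0.85, SE 0.150), and CXCR4, a chemokine receptor, from 3.22, 3.28 and 3.11 CPM to 1.69, 2.19 and 1.88 CPM (log2 fold -0.73). KCNMA1, a potassium channel, fell by 0.49, and PPP1R1A, a phosphatase inhibitor, by 0.69. IGFBP5, a binding protein of insulin-like growth factors, was at 1675, 1728 and 1748 CPM in control and 1222, 1223 and 1239 CPM at day 3 (log2 fold -0.48, SE 0.0263, adjusted p = 1.25e-08). Separation of the 2 groups of libraries was a condition of the rule that named these falls. SHISA2, COL4A6 (a basement membrane collagen) and FBXO32 (a ubiquitin ligase subunit) fell by 0.56, 0.47 and 0.45. The calls of CXCR4 and PPP1R1A were lost in 4 and 5 of the 6 single omissions, control replicates 1 and 2 among them. Those of TFF3, SHISA2, PGR, PRLR, BCAS1, SLC7A1, SLC1A4 and YARS1 were lost whichever control or day 3 library was left out.

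Junction, matrix and signalling genes gave few calls, where 1.88% of all genes were called. CLDN1, a tight-junction claudin, fell from 183, 181 and 175 CPM to 147, 151 and 151 CPM (log2 fold -0.26), the 1 call among 29 epithelial junction genes, and CDH1 was not called (log2 fold -0.01, adjusted p = 0.976). THBS1, a matrix glycoprotein, was the 1 fall among 16 mesenchymal and matrix genes (log2 fold -0.20). ADAM9 was the 1 rise among 17 matrix proteases and inhibitors, and 0 of 12 integrins were called by limma (4 without adjustment, 0 with voom, 1 rise and 2 falls in the 6-library fit). DUSP4 and PHLDA1, feedback genes of MAPK signalling, fell by 0.40 and 0.23, the 2 calls among 20. The 6-library fit called 4 falls and 0 rises in this list. PMEPA1 and LTBP1, both tied to TGF-beta, fell by 0.24 and 0.17, again the 2 calls among 20. LTBP1 was not called when control replicate 2 or day 3 replicate 3 was omitted. In the TGF-beta list, too, the 6-library fit called 4 falls and 0 rises.

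Growth and housekeeping lists gave almost no calls at day 3 in the fit of all 9 libraries. By limma 0 of 32 mitosis genes (1 without adjustment), 0 of 21 G1 genes (2), 0 of 20 p53 targets (4), 0 of 31 hypoxia genes (4), 0 of 32 chaperone genes (4), 0 of 27 lysosome genes (7), 0 of 51 ribosomal protein genes (1) and 0 of 34 mitochondrial ribosome genes (3) were called, and voom called 0 in each. The 6-library fit called 7 falls of lysosome genes, 4 of hypoxia genes, 3 of p53 targets, 2 of ribosomal protein genes and 1 of mitochondrial ribosome genes. It also called 1 rise and 1 fall of mitosis genes, 1 rise of G1 genes, and 1 rise and 2 falls of chaperone genes. MYC was at 40.4, 41.5 and 38.9 CPM in control and 41.0, 38.4 and 42.7 CPM at day 3 (log2 fold 0.01, adjusted p = 0.979), and CCND1, cyclin D1, had a log2 fold of 0.04 (adjusted p = 0.749). Of 40 replication genes GINS4 was the 1 called (log2 fold -0.17, lost without control replicate 2 and in 4 other single omissions), and of 42 nuclear respiratory chain genes UQCRFS1 (log2 fold 0.27). PNPT1, a mitochondrial RNA-processing enzyme that interferon also induces, was the 1 call among 23 genes of mitochondrial translation and DNA upkeep, at 58.4, 59.2 and 54.2 CPM against 81.3, 77.4 and 80.1 CPM (log2 fold 0.48, SE 0.0492). Replication-dependent histones, whose reads can vary with RNA quality and library preparation, rose in 3 of 16 genes (18.8%), where 1.16% of all genes rose. Their summed level was 759 to 789 CPM in control and 871 to 885 CPM at day 3. H1-2 rose from 63.0, 64.5 and 66.1 CPM to 78.5, 76.3 and 77.9 CPM (log2 fold 0.27), beside H2BC5 (0.28), whose call was lost whichever control or day 3 library was left out, without trend and with median centring. That count was 5 in the 6-library fit and 1 when control replicate 1, or replicate 1 or 3 of day 3, was omitted. Mitochondrial ribosomal RNA took 0.449% to 0.486% of reads in control and 0.395% to 0.415% at day 3, and its part in the results was not tested.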

How the data were processed

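The authors deposited 1 table of log2 CPM per cell line; the unit was read from the values. Per the submitters' processing notes, STAR, featureCounts and limma were used with build GRCh38.p13; these sources name no version, strand setting or filter on low genes. The deposited log2 values gave whole reads (100.0% within 0.1 of a whole number) once a pseudocount of 3 reads, scaled by depth, was removed, so folds are on a log2(CPM + pseudocount) scale that understates changes of genes with few reads. All pairs of libraries within a group differed by more than sampling noise (chi-square per degree of freedom 1.736 to 4.129 in control and day 3, up to 23.593 at day 15) and each was counted once.

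limma 3.58.1 (R 4.3.3, statmod 1.5.0) was fitted to the 9 T47D libraries with group means, mean-variance trend and robust moderation, two-sided, with Benjamini-Hochberg adjustment over 14768 genes. The design had foreseen a test on log2 values. Tested on simulated data with 14768 genes, the fit called 81 of 100 genes changed by 0.5 log2 units, 99 of 100 changed by 1, and 9 unchanged genes.

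The comparison, the 49 gene lists and the panel genes TES, SLC25A36, CUX2 and ADAM9 were chosen with earlier results of these data known. Named genes are G0S2, the 12 largest called rises and falls (mean log2 CPM of 1 or more, groups not overlapping, leaving out clone-based, LINC and antisense names, by which COLCA1 stayed in), up to 6 called members of a list with 3 or more calls and up to 2 of other lists, and a fixed panel of 21 genes, called or not. VIM, IFNB1 and IFNL1 of the panel were not listed. Exceptions are said to be such, and a few genes the rule takes are not reported here. Promoters come from RefSeq (GRCh38.p14), matched by symbol, and positions from GENCODE release 29 (GRCh38). Alternatives were the 6 libraries alone, no trend, no robust moderation, median centring, a filter at a mean log2 CPM of 1, a further 1 CPM added to the deposited values with their own pseudocount left in, voom on the recovered reads, the replicate block, and each control or day 3 library, or day 15 replicate 2, left out.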

Additional observations from a re-analysis of the deposited data

Results flagged for a closer look

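Between day 3 and day 15 the limma fit of the 9 T47D libraries called a difference in many named genes. Interferon genes were lower at day 15: the log2 difference was -2.34 in ISG15, -2.09 in IFIT1, -1.88 in OAS2, -1.82 in MX1, -1.80 in IFIT3, -1.76 in OASL, -1.75 in IFI6, -1.68 in OAS1, -1.54 in IFIT2, -1.51 in IFI27 and -1.48 in DDX60. The response-element factors named were lower too, by -0.98 in IRF9 and -0.49 in STAT2. CUX2 (0.85), TES (0.38), FBXO32 (0.34), SLC25A36 (0.19) and CDH1 (0.10) were higher at day 15. Several genes that fell at day 3 were lower still, SHISA2 by -0.80, COLCA1 by -0.64, KCNMA1 by -0.57 and IGFBP5 by -0.43. TFF1 (-0.69) and ESR1 (-0.15), not called at day 3, were lower at day 15 than at day 3.

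For 14 of the 99 named genes in both tables (14.1%), all T47D libraries separated one way at day 3 and all MDA-MB-231 libraries the other way. So did 368 (2.91%) of all 12666 genes in both tables. These shares are not alike, as most named genes were called and so separated in T47D, where 21.9% of all genes did. The difference between the lines was not tested, and none of the 14 was called in MDA-MB-231 by limma. For these 14 genes the T47D log2 folds are given with the MDA-MB-231 ones. These were DDX58 (1.92 against -0.10), PSMB9 (1.14 against -0.17), IRF1 (0.91 against -0.09), TRIM14 (0.64 against -0.09), TNFSF10 (0.48 against -0.17), PNPT1 (0.48 against -0.11), CD74 (0.41 against -0.07), H2BC5 (0.28 against -0.14) and CCND1 (0.04 against -0.02). The opposite signs were seen in FBXO32 (-0.45 against 0.16), SLC7A11 (-0.27 against 0.06), LTBP1 (-0.17 against 0.08), PRLR (-0.15 against 0.34) and SLC1A4 (-0.15 against 0.10).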

How the results depend on the processing

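Against 277 calls (171 higher, 106 lower), the fit of the 6 libraries alone gave 921 (389 and 532) and the fit without day 15 replicate 2, chosen after seeing the data, 746 (333 and 413). Without trend 53 genes were lower, and single omissions gave 182 to 214 calls, 137 to 151 higher and 43 to 63 lower. Replicate numbers did not pair the libraries (same-number correlations of deviations -0.007 to 0.061, other pairs -0.099 to 0.086), and with the replicate block 214 genes were called, 60 of them lower. Between day 15 and day 3, 824 genes became 520 without trend, 511 with the replicate block and 2604 without day 15 replicate 2. Falls of amino acid transporters, 4, became 8 in 6 libraries, 2 without trend and 1 to 2 in omissions. Falls of estrogen-induced genes, 4, became 9 in 6 libraries, 1 without trend, 1 with the replicate block, 8 without day 15 replicate 2 and 1 to 2 in omissions. Falls of luminal markers, 4, became 1 without trend, 1 with the replicate block and 1 to 2 in omissions. Rises of apoptosis genes, 3, became 5 in 6 libraries and without day 15 replicate 2, 1 without trend, 1 under the filter and 0 to 1 in omissions, and rises of histones, 3, became 5, 5 and 1, and 1 to 3 in omissions. The cause of these moves was not tested. Rises of the 10 interferon and antigen lists with 3 or more calls stayed within 1.5 times their count in all settings run. Of 106 named calls, 82 held in every setting that tested the gene: 66 of 76 rises and 16 of 30 falls. The filter at a mean log2 CPM of 1 left genes with few reads untested, XAF1, RSAD2 and TRIM22 among them. Over all calls, 141 of the 171 rises and 98 of the 106 falls were kept under that filter. Signs turned in uncalled genes alone: MYC was -0.002 median centred and -0.0206 to 0.0564 over single omissions, CDH1 -0.0144 to 0.0009 and PNPLA2 -0.0423 to 0.0324.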

Other observations

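Outside the 8 interferon lists 91 genes rose, 23 of them by more than 2-fold. The genes in the next sentences were chosen after their values were seen. PCDH20, a protocadherin, was at 7.92, 8.07 and 6.96 CPM in control and 30.7, 31.3 and 30.9 CPM at day 3 (log2 fold 2.01, SE 0.0696, limma adjusted p = 5.96e-11), and day 15 lay 1.58 log2 units under day 3 (-1.58). TRANK1 rose with a log2 fold of 1.56 and ZSWIM6 with one of 1.22, and both were lower at day 15 (-0.89 and -0.84). ZNF608, at 12.9, 12.5 and 11.4 CPM in control and 22.9, 23.3 and 23.8 CPM at day 3 (log2 fold 0.93), did not differ between the times by this test (0.07, adjusted p = 0.674). Among these rises, 18 of 69 with a matched promoter hold the response-element core, or 26.1%, including CFB, a complement gene (log2 fold 2.04), and GBP4 (1.59).

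Among falls outside the rule, KITLG, the ligand of the receptor KIT, went from 99.3, 91.3 and 88.1 CPM to 69.8, 71.7 and 67.8 CPM (log2 fold -0.41) and lay a further -1.07 lower at day 15. CALCR, the calcitonin receptor, went from 73.1, 71.2 and 70.7 CPM to 54.8, 58.9 and 53.5 CPM (log2 fold -0.36), with a further -1.04 at day 15. MGP, a secreted matrix protein, fell from 2253, 2275 and 2283 CPM to 1887, 1868 and 1770 CPM (log2 fold -0.30). Of the 106 falls, 35 were lower still at day 15, 13 were higher than at day 3 and 58 were not called, or 39 and 18 lower and higher without day 15 replicate 2.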
